A study of Mus musculus with 28 samples.

Results

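The regions described here carried H3K27ac at a moderate level in both deposited H3K27ac columns and little H2BK120ac in all 4 deposited H2BK120ac columns. They were chosen by their measured values: 1.5 to below 4 in H3K27ac of EtOH and of 4HT, and below 0.9 in each of the H2BK120ac columns named ED, ET, TD and TT, with a missing value counted as 0. Of 127646 regions, 348 met these limits and are called members below. The same H3K27ac window held 3973 regions, so members made up 8.76% of it. The other 3625 regions of the window reached 0.9 in at least 1 H2BK120ac column and served as the comparison, and 680 of them reached 0.9 in all 4 columns. H2BK120ac alone was below 0.9 in all 4 columns at 96074 regions of any H3K27ac level.

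The samples were mouse embryonic stem cells (mESCs) with the FOXD3-iKO genotype, an inducible knockout of the forkhead factor FOXD3, grown in L2i with a treatment time of 24 h. The H3K27ac groups were 2 samples with the solvent EtOH and 2 with 4HT, the tamoxifen derivative used to deplete FOXD3, both from asynchronous cells. The H2BK120ac groups were 3 samples each of ED, ET, TD and TT, codes that the labels do not spell out, so which of them had lost FOXD3 is not known here. The name under which the H2BK120ac columns were deposited holds the tags trp and async. What trp stands for is not spelled out, and the name of the H3K27ac columns lacks it. The columns of the 2 marks may thus come from differently treated cells. The labels state neither what drives the knockout nor whether the line is a single clone. All 6 groups share the genotype, and each was deposited as 1 column with its samples merged. No spread between samples could be computed and no test was run, so every value below is a description of merged columns.

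CUT&Tag directs a transposase to chromatin that carries a mark and sequences the fragments it releases. H3K27ac, acetylation of lysine 27 of histone H3, marks active promoters and enhancers and is written by the acetyltransferases p300 and CBP. The same enzymes acetylate lysines in the tail of histone H2B, while lysine 120 of H2B, near the other end of the protein, can be acetylated or ubiquitinated and is better known for the ubiquitin that accompanies transcription. Both acetyl marks have been described at active promoters, so regions with the first mark and little of the second are a place to compare them.

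Taking the most frequent value of each column as 1 fragment, a fragment was worth 0.165 (EtOH) and 0.207 (4HT) for H3K27ac and between 0.412 (TD) and 0.445 (ED and ET) for H2BK120ac. This corresponds to depths of 6.08 M and 4.82 M fragments for H3K27ac and 2.25 M to 2.43 M for H2BK120ac. The lowest H2BK120ac values were 0.25 of the most frequent value, so a fragment may be worth less than read here. All fragment numbers, depths and counting intervals for H2BK120ac rest on this reading. The limit of 0.9 is then a pile-up of 2.02 to 2.19 fragments, while the H3K27ac limit of 1.5 is 9.11 fragments in EtOH and 7.23 in 4HT. A region with no fragment in an H2BK120ac column is still compatible with up to 1.23 to 1.34 in that column (the level of 3 fragments), which is above the limit. Summed over the 4 columns, the member median was a pile-up of 4.83 fragments, against 11.9 in the rest of the window. That difference follows from the rule and is given as a description. For 20 of 348 members the upper limit of the exact 95% Poisson interval of the 4-column mean lay below 0.9, so few single regions can be placed below the limit at this depth. The label of little H2BK120ac is relative to the H3K27ac window, since the member median of the 4-column mean, 0.519, was above that of all regions, 0.272. These intervals cover counting error only. They take the mean pile-up as a number of fragments, although a wide region can hold more fragments than its pile-up.

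The labelled cell type was checked on H3K27ac at the strongest region within 50 kb of the start of each marker gene. Over 8 embryonic stem cell markers the median was 6.00 in EtOH and 9.40 in 4HT, with a range from 0.535 to 14.9 and from 0.593 to 16.7. The medians were 0.273 and 0.369 for 5 primitive endoderm markers (up to 0.506 and 0.561), 0.399 and 0.357 for 4 trophectoderm markers (up to 1.995 and 1.66, at Gata3), and 0.280 and 0.314 for 6 fibroblast markers (up to 1.91 and 1.98, at Col3a1). The ranges overlap, since the stem cell markers Klf4 (0.535 in EtOH) and Esrrb (1.57 in EtOH) lay below Gata3 and Col3a1 in that column. Around Foxd3 itself, 20 regions lay within 50 kb. Of these, 6 were in the H3K27ac window and none was a member. Members were 8.76% of the whole window, so nothing is read from this. Values at the locus of a histone mark do not show whether the gene was deleted.

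Promoters of 6 genes at members are printed here in part, the 250 bases before the RefSeq start site (GRCm38.p6, the assembly of the mm10 build named in the submitters' processing notes), so that the sequences under these regions can be compared. Spp1, Gm14322 and Mrpl40 follow from the naming rule. Smarcc1, Gm14325 and Atg101 were chosen after their values were seen, as the other proximal members of highest H3K27ac with a promoter entry. Capitals mark matches on either strand to TGTTTAC (a forkhead core motif), GGGCGG (the GC box), CCAAT or TATAAA. Spp1 encodes osteopontin (chr5:104434861-104435110, plus strand), and its promoter has 3 CpG and a GC content of 43.6%.
Spp1: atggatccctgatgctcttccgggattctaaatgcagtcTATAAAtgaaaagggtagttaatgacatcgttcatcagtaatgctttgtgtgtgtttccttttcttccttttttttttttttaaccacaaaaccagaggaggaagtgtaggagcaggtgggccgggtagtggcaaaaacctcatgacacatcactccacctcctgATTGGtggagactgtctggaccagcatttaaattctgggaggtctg
Gm14322 (chr2:177759038-177759287, plus strand) is a predicted gene, with 1 CpG in these bases.
Gm14322: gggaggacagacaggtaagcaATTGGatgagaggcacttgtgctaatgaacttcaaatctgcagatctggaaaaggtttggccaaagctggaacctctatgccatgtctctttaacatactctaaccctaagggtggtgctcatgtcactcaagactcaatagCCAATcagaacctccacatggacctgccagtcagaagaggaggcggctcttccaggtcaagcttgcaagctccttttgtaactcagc
Gm14325 (chr2:177840337-177840586, minus strand) is another predicted gene nearby, with 3 CpG.
Gm14325: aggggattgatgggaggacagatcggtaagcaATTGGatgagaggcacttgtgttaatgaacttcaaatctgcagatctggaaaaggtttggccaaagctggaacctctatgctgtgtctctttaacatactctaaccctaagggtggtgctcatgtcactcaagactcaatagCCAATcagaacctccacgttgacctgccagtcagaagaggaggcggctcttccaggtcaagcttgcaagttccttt
Mrpl40 encodes a protein of the large mitochondrial ribosomal subunit (chr16:18876638-18876887, minus strand), with 22 CpG and the forkhead core match on the reverse strand.
Mrpl40: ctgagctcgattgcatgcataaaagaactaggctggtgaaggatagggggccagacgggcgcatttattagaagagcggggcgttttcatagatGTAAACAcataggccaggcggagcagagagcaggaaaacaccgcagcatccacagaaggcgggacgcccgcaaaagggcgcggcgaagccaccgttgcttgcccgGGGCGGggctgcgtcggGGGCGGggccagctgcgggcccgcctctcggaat
Smarcc1 encodes a core subunit of the BAF chromatin remodelling complex (chr9:110131774-110132023, plus strand), with 21 CpG.
Smarcc1: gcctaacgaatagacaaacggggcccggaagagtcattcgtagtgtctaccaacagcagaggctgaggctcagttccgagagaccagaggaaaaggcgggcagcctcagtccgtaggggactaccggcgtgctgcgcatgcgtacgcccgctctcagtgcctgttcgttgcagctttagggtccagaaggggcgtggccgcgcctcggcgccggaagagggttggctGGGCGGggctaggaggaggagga
Atg101 encodes a subunit of the autophagy-initiating kinase complex (chr15:101284051-101284300, plus strand), with 23 CpG and no match to any of the 4 motifs.
Atg101: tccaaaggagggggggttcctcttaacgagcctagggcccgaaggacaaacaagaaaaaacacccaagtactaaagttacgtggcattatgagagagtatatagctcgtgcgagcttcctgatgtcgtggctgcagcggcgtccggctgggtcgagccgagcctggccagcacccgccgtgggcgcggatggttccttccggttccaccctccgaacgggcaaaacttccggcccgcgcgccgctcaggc
The promoters of Gm14322 and Gm14325 shared 97 of their 221 overlapping words of 30 bases. Reads from such copies can be assigned to either place, so the values of both members are uncertain.

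The values that chose the members were as follows. H3K27ac had a median of 1.88 in EtOH (1.503 to 3.77) and 2.23 in 4HT (1.52 to 4.00). The H2BK120ac medians were 0.561 (ED), 0.566 (ET), 0.452 (TD) and 0.420 (TT), against 1.14, 1.22, 1.12 and 1.02 in the rest of the window. The members thus sat near the most frequent value of each H2BK120ac column, which is read here as 1 fragment. No coverage at all was found at 19 (ED), 20 (ET), 42 (TD) and 55 (TT) members, and 249 members were covered in all 4 columns.

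**Figure D1:**
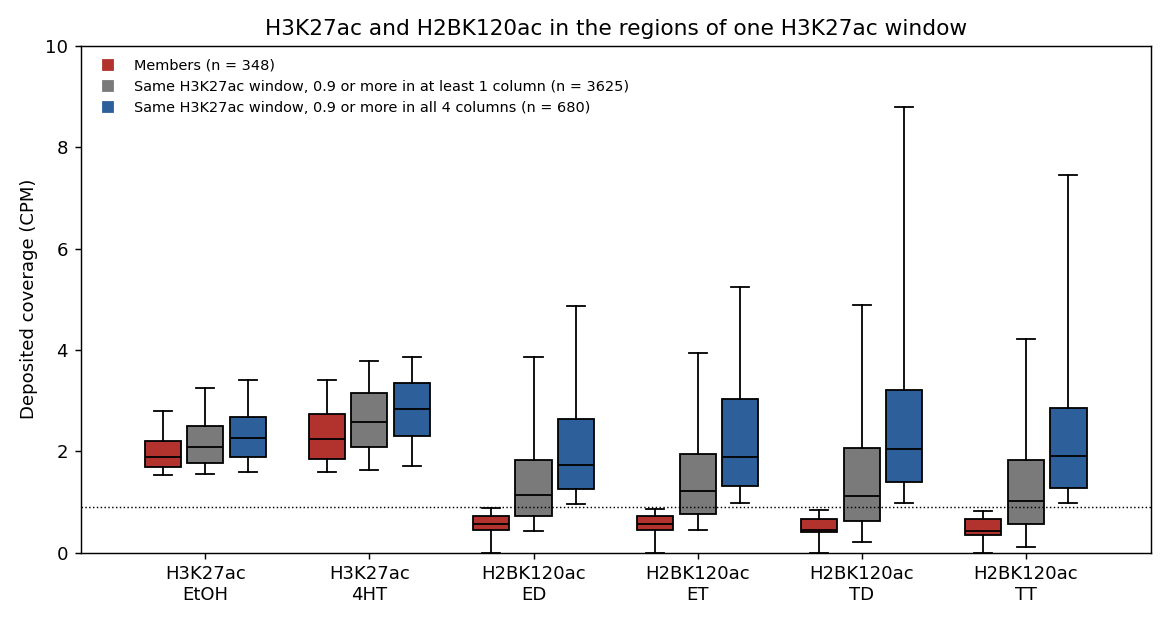
Deposited coverage (CPM) in the 2 H3K27ac and 4 H2BK120ac columns for members, the rest of the H3K27ac window and its regions with 0.9 or more in all 4 columns. Boxes span the quartiles with the median as a line, whiskers reach the 5th and 95th percentiles of regions, and the dotted line is the 0.9 limit; members lie below it in H2BK120ac by choice, with medians of 0.420 to 0.566.

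The limit cut through a continuous distribution. The highest of the 4 H2BK120ac columns lay below 0.5 at 20 regions of the window, from 0.5 to below 0.7 at 102, from 0.7 to below 0.9 at 226 and from 0.9 to below 1.2 at 432. No gap separated the members from the regions above the limit. Just inside it were a region in Hsd17b3 (highest column 0.89997) and a region in Ssc4d (0.898), and just outside it regions in Ccnd3 (0.900008) and Slc28a1 (0.90003). At the H3K27ac limit of 1.5, the promoter region of Epc1 (1.503) and a region at Gm32856 (1.508) were inside, and regions nearest Klf3 (1.498) and Ddc (1.496) fell just short. At the upper limit of 4, the same Ssc4d region (4.00) and a region nearest Col14a1 (3.97) were inside, and regions nearest Gm14410 (4.03) and She (4.05) were outside. Above the window, 23 regions had as little H2BK120ac with 4 or more in at least 1 H3K27ac column, and 3 of them had 4 or more in both, of 957 such regions. Among those 23, picked after their values were seen, a region nearest Rcor2, a CoREST corepressor gene, had 4.89 in EtOH and 6.06 in 4HT. Its H2BK120ac was 0.581 (ED), 0.328 (ET), 0.171 (TD) and 0.342 (TT).

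**Figure D2:**
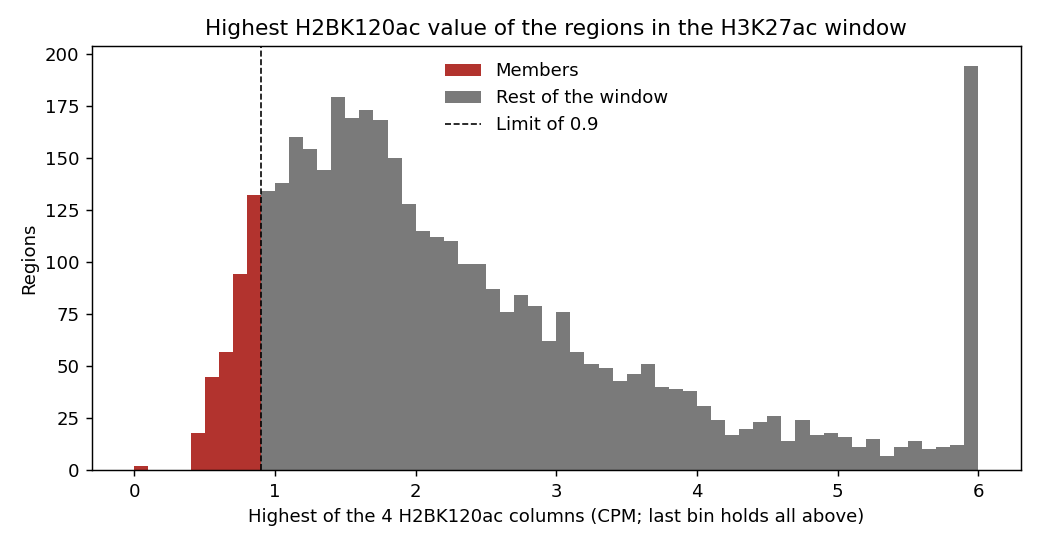
Number of regions in the H3K27ac window by the highest of their 4 H2BK120ac columns (CPM), with the 348 members coloured and the 0.9 limit dashed. The distribution has no gap at the limit, and the last bin collects all regions above it.

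Only 2 members had no H2BK120ac fragment in any column. The member inside 5430403G16Rik (chr5:109683412-109683523) had H3K27ac of 2.23 in EtOH and 3.62 in 4HT, and the member at the start site of Gm14322 (chr2:177759225-177759389) had 2.08 and 1.93. With 0 fragments in all 4 columns, the exact 95% Poisson interval still allows a 4-column mean of up to 0.396. Both regions are narrow, 112 bp and 165 bp.

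H3K27ac in 4HT and in EtOH differed little among members, as far as the limits allow, since both columns chose them. The ratio of 4HT to EtOH ran from 0.593 to 2.14 with a median of 1.13, and 4HT was the higher column in 248 of 348 members (71.3%), against 76.2% in the rest of the window. On the log2(value + 0.2) scale the median difference was 0.17, against 0.23 in the rest of the window and 0.13 over the 65565 regions with a mean of at least 0.2. Quantile normalization, which gives both columns the same distribution, turned the member median to -0.15, with -0.12 in the rest of the window and -0.01 over the kept regions. At least 2-fold higher in 4HT was 1 member, beside 6.42% of all kept regions, and at least 2-fold lower were 0 members, beside 3.08%. The rule used both columns, so nothing is read from these counts. For all 348 members the exact 95% counting interval of the ratio included 1.

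The highest ratio belonged to a member inside Mthfd1l and nearest the start of Akap12, with 1.65 in EtOH and 3.54 in 4HT (ratio 2.14, 0.926 to 5.23). It was followed by a member in Zfp626, a zinc finger gene, with 1.77 and 3.68 (2.08, 0.922 to 4.83). A member inside Clmp, nearest the chaperone gene Hspa8, had 1.62 and 3.34 (2.06, 0.860 to 4.97). At the other end, a member inside Nfib, which encodes a transcription factor, had 2.95 in EtOH and 1.75 in 4HT (0.593, 0.211 to 1.35). A member nearest Scd2, a gene of fatty acid desaturation, had 3.07 and 1.93 (0.627, 0.238 to 1.38), and a member nearest Tbl1xr1, a corepressor subunit gene, had 3.01 and 1.90 (0.631, 0.249 to 1.48). Even at these extremes the interval, which takes the pile-up as a number of fragments, included 1.

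Position relative to genes was not used by the rule. Within 1 kb of the start site of a protein-coding gene, here called proximal, lay 105 members (30.2%), against 27.8% of the rest of the window, 18.8% of the regions with 0.9 or more in all 4 columns and 14.6% of all regions. More than 50 kb away lay 50 members (14.4%), against 23.5%, 32.8% and 37.8%. The median distance to a start site was 8999.5 bp for members and 13317 bp for the rest of the window. Inside the span of a protein-coding gene lay 66.1% of members and 57.8% of the rest of the window. Among distal regions alone the shares were 53.9% and 44.0%. Over all regions the share was 55.0%, and 48.8% among all distal regions. Within the same H3K27ac window, members were thus placed nearer to and more often within genes than regions with more H2BK120ac. Distance and gene-span share were not compared at matched H3K27ac or width. The clearest difference lay far from start sites. The proximal share differed less and depended on the stratum. By mean H3K27ac it was 31.7% in members and 32.6% in the rest at 1.5 to below 2, 31.3% and 27.8% at 2 to below 2.5, 28.3% and 25.6% at 2.5 to below 3, and 13.3% (2 of 15 members) and 23.7% at 3 to below 4. By width it was lower in members below 200 bp (7.04% and 13.2%) and at 200 to below 400 bp (11.5% and 12.9%). It was 29.4% and 19.1% at 400 to below 600 bp and 56.9% and 36.1% at 600 to below 1000 bp. At 1000 bp or more it was 72.7% and 70.1%.

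**Figure D3:**
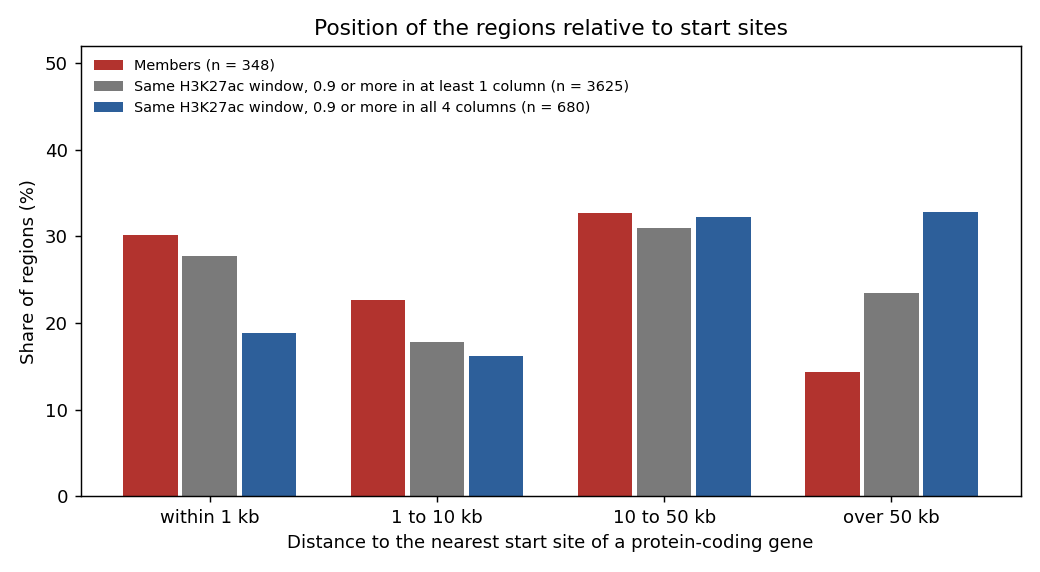
Share of regions (%) by distance to the nearest start site of a protein-coding gene, for members, the rest of the H3K27ac window and its regions with 0.9 or more in all 4 columns. Over 50 kb the shares are 14.4%, 23.5% and 32.8%, and within 1 kb 30.2%, 27.8% and 18.8%.

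The H2BK120ac columns differed in where they were high, and the members had to be low in all of them. In the rest of the window, proximal regions had medians of 1.73 in TD and 1.59 in TT but 0.776 in ED and 0.765 in ET. Beyond 50 kb the order was the opposite, with 1.87 in ED and 1.95 in ET but 0.901 in TD and 0.794 in TT. Of 1007 proximal regions in the rest of the window, 42.6% reached 0.9 only in TD or TT and 5.26% only in ED or ET. Of 851 beyond 50 kb, 3.76% did so only in TD or TT and 40.7% only in ED or ET. The gap between members and the rest was thus widest in TD and TT at proximal regions, and in ED and ET beyond 50 kb. It follows from the rule and the values of the rest. Within the members, TD and TT went from 0.602 and 0.569 at proximal members to 0.403 and 0.302 beyond 50 kb. ED went from 0.516 to 0.599 and ET from 0.571 to 0.574. These medians lie close to the value read as 1 fragment, with missing values counted as 0. The median member width was 698 bp at proximal members and 322 bp beyond 50 kb, so no order is read from them. Of the window's regions, members were 9.44% of the proximal, 10.9% of those 1 to 10 kb away, 9.22% of those 10 to 50 kb away and 5.55% of those farther.

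**Figure D4:**
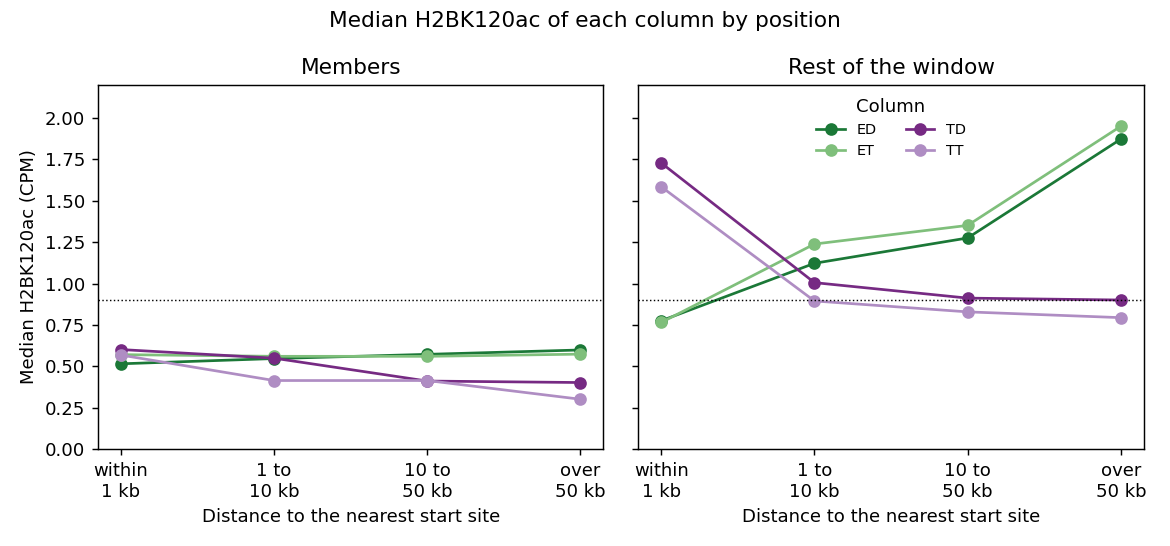
Median H2BK120ac (CPM) of the columns ED, ET, TD and TT by distance to the nearest start site, for members on the left and the rest of the H3K27ac window on the right, with the 0.9 limit dotted. In the rest of the window TD and TT are highest near start sites (1.73 and 1.59) and ED and ET beyond 50 kb (1.87 and 1.95), and all member medians lie between 0.302 and 0.602.

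Members had less H3K27ac than their comparison, and their median width was slightly smaller. They made up 13.9% of the window at a mean H3K27ac of 1.5 to below 2, then 9.26%, 6.09% and 2.68% at 2 to below 2.5, 2.5 to below 3 and 3 to below 4. The median width was 432.5 bp in members (quartiles 242 and 680 bp), 479 bp in the rest of the window and 252 bp over all regions. With regions missing in any column left out, the medians were 503 and 508 bp. The share of window regions that were members also differed between chromosomes. Chromosome Y had 0 of 3 window regions, and the others ranged from 2.34% on chromosome 12 (4 members) and 2.93% on chromosome 6 (7 members) to 17.2% on chromosome 10 (31 members).

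Regions around members had less H2BK120ac than regions around the rest of the window. Another region lay within 2 kb of 219 members (62.9%), against 65.4% of the rest of the window and 45.4% of all regions. The nearest such neighbour of members had a median 4-column H2BK120ac mean of 0.616. The same median was 1.11 around the rest of the window and 1.64 around regions with 0.9 or more in all 4 columns. Below 0.9 in all 4 columns were 42.5% of the members' neighbours, against 15.2% and 7.54%. Of these neighbours 17 were members themselves. Among the 202 that were not, the median was 0.659 and 37.6% were below 0.9 in all 4 columns, against 1.12 and 13.7% around the rest of the window. Over all regions the share was 75.3% and the median 0.272, so the members' neighbours had more H2BK120ac than regions in general. For neighbours 1 to 5 kb away that were not members the shares were 39.3%, 28.6% and 22.0%. Adjacent regions can share fragments, and the part of this in the values was not tested. The neighbours differed less in H3K27ac, with medians of 1.51 in EtOH and 1.61 in 4HT around members and 1.65 and 2.08 around the rest of the window. Among neighbours with a mean H3K27ac of 2 to below 4, the 4-column medians were 0.828, 1.32 and 1.98.

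With distance the difference shrank. Averaged over all other regions in a ring, the median H2BK120ac was 0.647 around members and 1.09 around the rest of the window at 0 to 2 kb, 0.630 and 0.790 at 2 to 5 kb, and 0.521 and 0.580 at 5 to 10 kb. At 10 to 50 kb the values were 0.508 and 0.510, and at 50 to 200 kb they were 0.460 and 0.433. The quartile ranges of members and of the rest of the window overlapped in every ring. With members left out of the rings the medians at 0 to 2 kb were 0.667 and 1.11. Of neighbours within 2 kb that were themselves in the H3K27ac window, 17 of 67 were members (25.4%) next to a member, and 42 of 818 (5.13%) next to a region of the rest.

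**Figure D5:**
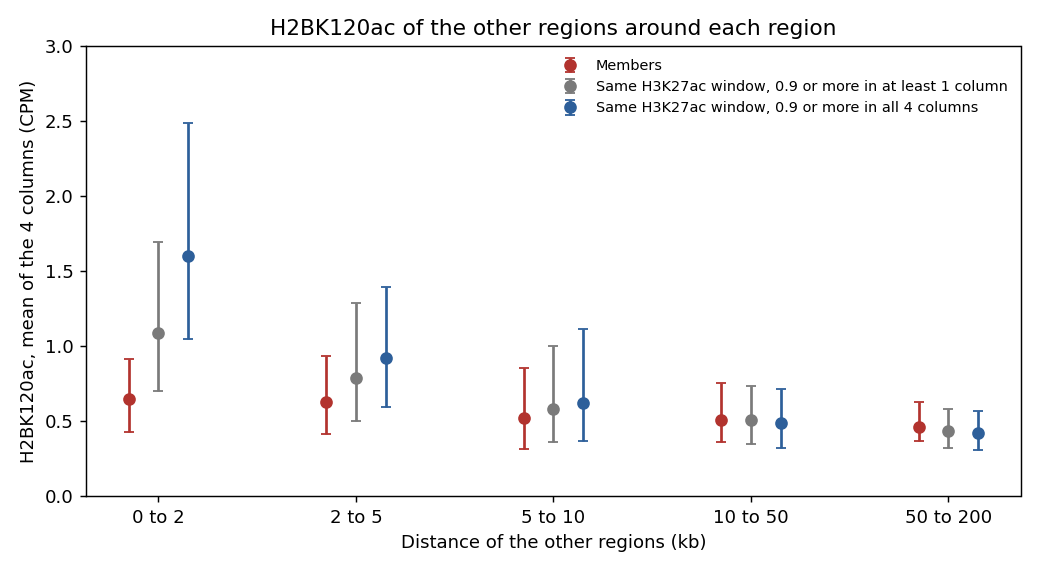
H2BK120ac (CPM, mean of the 4 columns) of the other regions around members, the rest of the H3K27ac window and its regions with 0.9 or more in all 4 columns, by distance in kb. Points are medians over regions and bars span the quartiles; the medians at 0 to 2 kb are 0.647, 1.09 and 1.60, and those at 10 to 50 kb are 0.508, 0.510 and 0.491.

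Some members did lie beside strongly marked regions. A member nearest Gm35364 (chr7:133115927-133116164) had H3K27ac of 2.14 in EtOH and 3.03 in 4HT, with H2BK120ac of 0.222 (ED), 0.814 (ET), 0.707 (TD) and 0.722 (TT). At a gap of 462 bp, inside the corepressor gene Ctbp2, a neighbour had 7.08 and 8.29 in H3K27ac and 1.08, 1.92, 3.25 and 2.30 in the same H2BK120ac columns. The other example was a member nearest Taf5l, which encodes a subunit of a histone acetyltransferase complex. At a gap of 1992 bp its neighbour had H2BK120ac of 1.57 (ED), 2.39 (ET), 1.94 (TD) and 2.16 (TT).

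Within 50 kb, 270 members had no other member, 62 were in pairs and 16 in groups of 3 or more. Another member lay within 50 kb of 22.4% of members. A member lay that near to 10.1% of the rest of the window and 2.82% of all regions. By nearest start site they fell to 313 genes, of which 286 had 1 member, 21 had 2 and 6 had 3 or more. Nearest start site is a label and does not say which gene a distal region acts on. Akap12, which encodes a scaffold for protein kinase A, had 4 members among its 7 regions in the window. They included the region at its own start site (chr10:4265595-4266790), with 1.80 in EtOH and 1.71 in 4HT for H3K27ac. That region had 0.597 (ED), 0.692 (ET), 0.554 (TD) and 0.394 (TT).

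Alg13, a gene of protein N-glycosylation, had 4 distal members among 6 regions, 14003 to 50810 bp from its start. Its member regions had H3K27ac of 1.63 to 2.32 in EtOH and 1.79 to 2.78 in 4HT. Gpx4, whose product reduces lipid peroxides, had 3 of 4, but a region over a further annotated start site at 80053372 to 80053721 on chromosome 10 was no member, with 1.002 (ED), 1.37 (ET), 1.65 (TD) and 0.801 (TT). Msi2, an RNA-binding protein gene, had 3 members, all inside its span, among 9 regions. Scn3b, a sodium channel subunit gene, had 3 of 3, and Zfp281, a zinc finger factor of pluripotent cells, had 3 of 5.

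Gene lists were counted by nearest start site. Over all 29 lists, 13 of 244 window regions were members (5.33%), against 8.76% over all genes, and 2 of 82 proximal window regions (2.44%) against 9.44%. Core pluripotency genes had 0 members among 10 window regions. The Sox2 promoter region, picked as an example after its values were seen, had H3K27ac of 1.98 in EtOH and 1.84 in 4HT, within the window, but H2BK120ac of 3.70 in TD and 4.33 in TT beside 0.798 in ED and 0.546 in ET. Naive pluripotency genes had 2 members among 31 regions. The Spp1 promoter region, whose upstream bases are printed above, had 2.66 in EtOH and 2.30 in 4HT, with 0.322 (ED), 0.514 (ET), 0.708 (TD) and 0.877 (TT). A distal region nearest Dppa3, a germ cell and pluripotency gene, had 1.76 and 3.09, with no coverage in ED and TT, 0.623 in ET and 0.412 in TD.

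Splicing factors (11 window regions), DNA methylation genes (10), p53 targets (7) and immediate early genes (7) had 0 members each. Cytosolic ribosomal protein genes had 3 members among 25 regions, all distal, and 0 among their 13 proximal regions. The strongest of these distal members, nearest Rps13 and inside Plekha7, had 2.61 in EtOH and 2.98 in 4HT. Mitochondrial ribosomal protein genes had 1 member among 12 regions, the Mrpl40 promoter, which also lies in the span of Hira, a gene of a histone H3.3 chaperone. It had 1.58 in EtOH and 1.93 in 4HT, with 0.379 in ED and 0.861, 0.858 and 0.868 in ET, TD and TT. These small counts describe the columns and were not tested.

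Single distal members fell to genes of several lists. A member near the cyclin D1 gene Ccnd1, 1453 bp from its start, had H3K27ac of 2.15 in EtOH and 2.76 in 4HT, with H2BK120ac of 0.412 to 0.733. A member nearest Jarid2, a cofactor gene of Polycomb repressive complex 2, had 2.75 and 2.08, with 0.223 to 0.615. Members nearest Pim1, a STAT3 target gene, Spred2, an inhibitor of ERK signalling, Smad7, an inhibitory SMAD, and Eef1a1, an elongation factor gene, had EtOH values of 1.55 to 2.5 and 4HT values of 1.55 to 2.54.

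Further proximal members are given as single examples, picked after their values were seen. No theme is read from them. The lists of splicing factors, of histone acetylation genes and of Polycomb genes had 0 proximal members among 10, 6 and 5 proximal window regions. With 9.44% over all genes, such small counts cannot tell whether a theme exists. The lists are also short and do not hold the proximal members Snrnp70 and Sin3a. Smarcc1 had the highest mean H3K27ac of these examples, with 2.89 in EtOH and 3.24 in 4HT. Its H2BK120ac was 0.587 (ED), 0.654 (ET), 0.605 (TD) and 0.419 (TT). Carm1, a histone arginine methyltransferase gene, had 2.26 and 3.003, with 0.454, 0.549, 0.394 and 0.678. Mbd3, a subunit gene of the NuRD deacetylase complex, had 1.73 and 2.21, with 0.445, 0.785, 0.511 and 0.548. Sin3a, the scaffold of another deacetylase complex, had 1.71 and 2.08, with no coverage in ED and 0.612, 0.623 and 0.540 in the other columns. In each of these the H3K27ac was a mean pile-up of about 10 or more fragments. The H2BK120ac was fewer than 3 per column if the most frequent value is 1 fragment.

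Members at Fbl, which encodes fibrillarin of the nucleolus, Cnot3, a deadenylase subunit gene, and Snrnp70, a splicing protein gene, had 4HT values of 2.75 to 3.05. The promoter regions of H2ac11 and H2ac12, histone H2A genes on chromosome 13 that pair with H2B genes, had 2.60 and 2.10 in EtOH and 2.04 and 1.98 in 4HT. Histone genes exist in near-identical copies, so these values are uncertain. Members nearest a gene with a Zfp symbol numbered 13 (3.74%), against 3.03% of the rest of the window. The share was 2.79% of the regions with 0.9 or more in all 4 columns and 1.63% of all regions.

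The genes nearest to distal members had promoters with nearly the same H2BK120ac as genes near other distal regions of the window. Of 214 such genes, 183 had a proximal region that was no member, with a median 4-column H2BK120ac of 0.656, against 0.681 for the rest of the window and 0.723 for regions with 0.9 or more in all 4 columns. Below 0.9 were 69.9%, 67.4% and 63.4% of these promoters.

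RefSeq promoter entries of 300 bases matched 84 of the 105 proximal members. Their median GC content was 60.3% and they held a median of 21.5 CpG, against 62.0% and 24 at proximal regions of the rest of the window. Fewer than 10 CpG were found in 19.0% of member promoters, such as those of Spp1, Gm14322 and Gm14325, against 9.09% in the rest of the window, 14.0% where all 4 columns reached 0.9 and 18.7% over all proximal regions. The GC box GGGCGG was present on either strand in 58.3% of member promoters, against 68.6% and 72.0% of those sets of the window and 64.7% over all proximal regions. CCAAT was present in 42.9%, 39.9% and 33.6%, and TATAAA in 8.33%, 7.35% and 6.54%. The forkhead core TGTTTAC was in 2.38% of member promoters, 2.24% of those of the rest of the window and 2.999% of all 21238 promoters. None of these shares was tested against another, and a match describes letters, not binding.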

How the data were processed

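The deposited values are coverage signal per region, depth-normalized to CPM as the authors' table names state, with the samples of each group merged by the authors into 1 column. For the aligner and the coverage software, names were not given in the sources used here. No value is 0, and a region without coverage holds no number, so a region's value averages its covered bases alone and is inflated where coverage is sparse. Missing values were counted as 0. The 16 IgG value columns (2 tables) correspond to no listed sample and stayed unused, so antibody background was not examined. Phase-sorted samples (12) were not analysed here. The positions of 5 kb windows around start sites were taken from 1 of those tables.

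Start sites came from the RefSeq promoter table for 17492 genes and from gene spans for 3681. Distances, neighbours and counts were computed with Python 3.11.15, numpy 2.4.6, pandas 2.3.3 and scipy 1.17.1, and the steps were tested on simulated regions. Ratio intervals are exact 95% Clopper-Pearson intervals on rounded pile-ups. The fold scale was log2(value + 0.2), which understates low regions. Named regions were the members without any H2BK120ac coverage (up to 8), the proximal and distal member of highest H3K27ac per gene list, the members of the 5 genes with most members (6 with ties), the 3 highest and lowest ratios, the 2 regions on each side of a limit, and the 2 strongest neighbours. The members and lists were chosen with earlier results of these data known.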

Additional observations from a re-analysis of the deposited data

How the results depend on the processing

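The H2BK120ac limit and the lower H3K27ac limit were changed in turn; the upper limit of 4 was not. The number of members was 216 with an H2BK120ac limit of 0.8, 1154 when the mean of the 4 columns replaced each column, 536 with the H3K27ac window from 1.3 and 110 with it from 2, since members lie close to the limits. All 348 remained under the mean of the 4 columns and the window from 1.3, since these wider limits include every member. The same holds for an H2BK120ac limit of 1, with 482 members. Quantile normalization of the H3K27ac columns gave 390 members, 303 of them among the 348. Scaling the H2BK120ac columns to a common fragment value gave 349, with 331 of the 348. With the window from 2, 1 member without any H2BK120ac coverage was left. Leaving out regions missing in any column, which is the same as keeping members covered in all 4 columns (chosen after seeing the data), gave 249 members, a proximal share of 35.7% and a median width of 503 bp (508 bp in the rest of the window). Members of 200 bp or more, also chosen after seeing the data, had a proximal share of 36.1%. The share with another region nearby was 49.7% within 1 kb and 76.4% within 5 kb. The median log2 difference of 4HT and EtOH turned to -0.15 under quantile normalization. Of 50 alternatives run, 37 stayed within the 95% interval over regions of the value as written or, for counts, within 1.5 times of it. Regions are not replicates and the alternatives share regions with the members, so this count is no measure of stability. The proximal share fell below that of the rest of the window with the mean of the 4 columns (26.2% against 28.7%) and equalled it from 1.3 (28.7% against 28.8%). The shorter distance to a start site and the larger share inside gene spans had the same direction under the rule as written and the 6 other settings compared. No paired analysis was possible because each group was deposited as 1 merged column that carries no replicate numbers, and no sample could be left out for the same reason. If the most frequent value is 1 fragment, H2BK120ac values rest on pile-ups of about 1 to 2 fragments at members. Single regions near 0.9 may then fall on either side by counting error.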
